A study of Gallus gallus with 2 samples.

Results

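The genes described are the collagens, the laminins and a small set of other matrix proteins, namely the linkers NID1, NID2 and AGRN and the glycoproteins FN1, SPARC, FBN1 and FBN2. They were chosen by gene symbol alone. The rule took 176 of 38382 probe sets, which name 59 of 13009 genes. RNA from pieces of chick embryos was measured on 2 one-colour arrays, 1 for each tissue. One array is labelled as the heart forming region (HFR), a tissue of heart precursors, and the other as the posterior part of the primitive streak (PPP), where cells leave the epiblast. Per the labels' protocols, embryos were incubated for about 12 h at 37.5 °C, electroporated at the early streak stage with the plasmid pCer2.5-EGFP, and dissected at HH4-4+. In this plasmid a 2.5 kb upstream fragment of the chick Cerberus gene drives the green fluorescent protein EGFP. The same treatment is given for both samples, HFR pieces were picked by their EGFP, and another label of both samples gives the stage HH4-5. How many embryos were pooled is not stated in the labels.

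Basement membranes are thin sheets of matrix that underlie epithelia. In them a laminin network binds to cells and a type IV collagen network gives the sheet its strength, while nidogens, agrin and perlecan link these networks. Fibrillar collagens, such as types I, III and V, form the cables of interstitial matrix, which is made mostly by mesenchymal cells. In the gastrulating embryo, cells that enter the streak cross the basement membrane below the epiblast, and fibronectin and laminin lie on the paths of migrating mesoderm.

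Values are model-based expression indices (MBEI), the authors' probe set intensities on a linear scale, each called present, marginal or absent by a detection test. Errors after ± are model standard errors among the probes of 1 array and hold no biological variation. Each tissue has 1 array, so differences could not be checked against replicates, p-values are not given, and precision is limited by the number of arrays. Differences are log2 MBEI on the HFR array minus the PPP array. Each gene is represented by its brightest probe set, judged on log2 MBEI averaged over both arrays. It passed the level filter when the brighter array called it present at 70.8 MBEI or more, the median of the brighter value over all probe sets. Where the dimmer array did not call it present, the fold is a lower bound. In whole pieces of tissue, fewer cells of a type and less RNA per cell cannot be told apart.

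Both genes that check the labels lay opposite to them. CER1, the gene whose fragment drove EGFP, read 108.3 ± 19.2 MBEI (marginal) on the HFR array and 420.2 ± 193.3 MBEI on the PPP array. The CER1 log2 difference of -1.96 had a wide model standard error of 0.71, and CER1 was called present on the PPP array alone. TBXT, a transcription factor of the streak, read 7128.6 ± 80.7 and 3691.4 ± 147.1 MBEI. The heart markers given at the end also lay opposite to the labels. The other streak markers given there were mixed: WNT3A lay opposite to the labels, MIXL1 lay near 0, and FGF8 lay with the labels at a log2 difference of -2.18. Below, each array is named by its label, as HFR-labelled or PPP-labelled, and if the labels were exchanged the tissue named in each comparison would turn, which was not tested. Present calls covered 38.4% of all probe sets on the first array and 42.2% on the second, and the median difference over 7389 passing genes was -0.05 with an SD across genes of 0.63. The 33 poly-A spike-in probe sets present on both arrays had a median log2 difference of -1.44. Setting them equal would add 1.44 to every difference and move the median of all passing genes to 1.39, so each direction below holds relative to the bulk of genes.

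Of the 59 genes, 26 passed the filter. In the HFR-labelled sample 3 of the 26 were at least 2-fold higher, namely COL4A1, COL4A2 and COL14A1, against 3.86% of all passing genes. In the PPP-labelled sample 4 were at least 2-fold higher, namely COL1A2, COL5A2, COL23A1 and FBN2, against 4.25% of all passing genes. COL14A1, COL5A2 and FBN2 reached the level filter only on the array where they are higher, so their side follows from the filter. When presence on both arrays was asked, the counts were 2 and 3, against 223 and 263 of 6890 genes. Nothing is read from these counts. The 26 were evenly divided, with 13 above 0 and 13 below 0 (45.2% and 54.8% of all passing genes), and had a median log2 difference of -0.03, close to the -0.05 of all passing genes. The classes lay on different sides: type IV collagens had a median log2 difference of 1.47, laminins of 0.45 and fibrillar collagens of -1.43. With the spike-ins set equal these medians were 2.91, 1.90 and 0.0092. Without the level filter they were 0.32, 0.21 and 0.091, and with the median over each gene's passing probe sets the type IV median was 0.66.

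**Figure D1:**
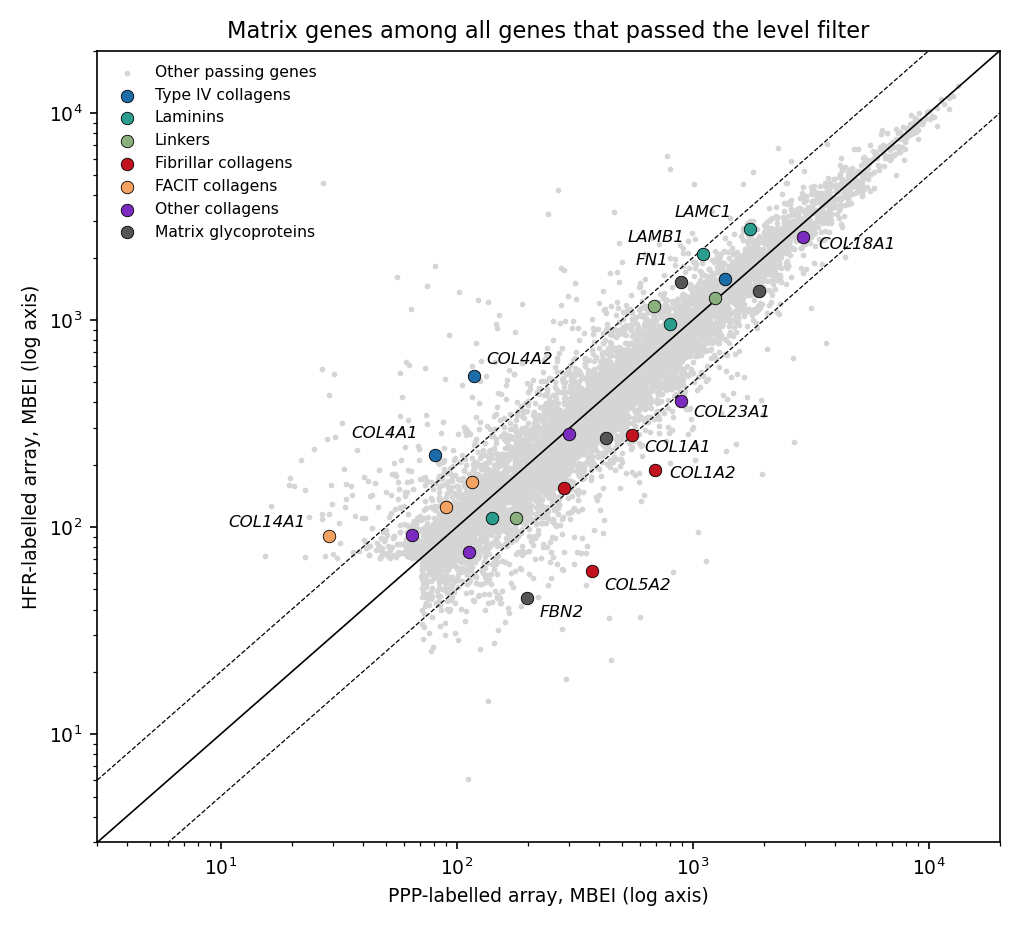
MBEI of each passing gene on the PPP-labelled (x) and HFR-labelled (y) array, both log axes, with the 26 passing matrix genes coloured by class, other passing genes in grey, the line of equality solid and 2-fold dashed. COL4A1, COL4A2 and COL14A1 lie above the upper 2-fold line, while COL1A2, COL5A2, COL23A1 and FBN2 lie below the lower one. COL14A1, COL5A2 and FBN2 reached the level filter only on the array where they are higher, so their side follows from the filter. With spike-ins set equal, COL23A1 would lie above equality and COL1A2, COL5A2 and FBN2 would stay below it.

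Type IV collagen is the collagen of basement membranes, and its COL4A1 and COL4A2 chains together form the most widespread trimer. COL4A2 read 536.2 ± 11.6 MBEI on the HFR-labelled array and 118.0 ± 5.8 MBEI on the PPP-labelled array. This was 4.54-fold higher on the former, a log2 difference of 2.18 with a model standard error of 0.08, and ranked 57 of 7389 passing genes from the HFR side. COL4A1 read 224.0 ± 5.3 and 80.8 ± 3.0 MBEI, 2.77-fold higher, a log2 difference of 1.47 with a model standard error of 0.06. Both were called present on both arrays.

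COL4A5, a chain of the trimers found in specialised basement membranes, read 1573.5 ± 55.9 and 1377.0 ± 33.1 MBEI. Its log2 difference of 0.19 (model standard error 0.06) was under that of COL4A1 by 1.28 (model standard error 0.09). The other members, COL4A3, COL4A4 and COL4A6, were not called present with any probe set. In the RefSeq gene order COL4A1 and COL4A2 are neighbours, as are COL4A5 and COL4A6, and COL4A3 and COL4A4. The first of these pairs was therefore higher on the HFR-labelled array as a pair, while of the second only COL4A5 passed.

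COL4A2 had further probe sets. Its other passing probe sets read 221.9 ± 6.8 and 145.8 ± 13.1 MBEI (absent), at least 1.52-fold higher, and 77.8 ± 3.9 and 49.2 ± 3.4 MBEI (absent), at least 1.58-fold higher. All 3 lay on the HFR side, 2 of them as lower bounds. The size of the COL4A2 difference, and its gap of 0.71 to that of COL4A1, therefore rests on 1 probe set. COL4A1 had 1 passing probe set, and its other 2 were called absent on both arrays with log2 differences of 0.05 and 0.21.

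Laminins are trimers of 1 alpha, 1 beta and 1 gamma chain, and of the 11 chains on the array 4 passed. LAMA5, LAMB1 and LAMC1 lay above 0, and LAMA1 had probe sets on both sides. None of the 4 reached 2-fold. LAMB1, the beta chain of most embryonic laminins, read 2083.2 ± 57.6 MBEI on the HFR-labelled array and 1101.5 ± 27.5 MBEI on the PPP-labelled array, a log2 difference of 0.92 (1.89-fold, model standard error 0.05). LAMC1, the common gamma chain, read 2741.2 ± 83.1 and 1741.8 ± 31.9 MBEI, a log2 difference of 0.65 (1.57-fold), and its other passing probe set had 0.90. LAMB1 and LAMC1 thus differed between the arrays by similar amounts, with LAMB1 larger by 0.27 (model standard error 0.07) and, set against the other LAMC1 probe set, by less than that.

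The alpha chains carry the main sites that bind cell receptors. LAMA5 read 955.8 ± 34.8 and 800.8 ± 29.0 MBEI, a log2 difference of 0.26 (model standard error 0.07). LAMA1, the alpha chain of the early embryo's laminin in mouse, had passing probe sets that went opposite ways. The one that stands for it read 110.2 ± 7.2 (absent) and 140.9 ± 7.6 MBEI, while the other read 91.7 ± 9.6 and 49.5 ± 7.4 MBEI with both called present. Their log2 differences were -0.35 and 0.89, so no direction is given for LAMA1. LAMA4 and LAMB4 were called present on the PPP-labelled array alone, each with 1 dim probe set under the level filter. LAMA2, LAMA3, LAMB2, LAMB3 and LAMC3 were not called present with any probe set.

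The linkers divided. NID1 (nidogen-1), which joins the laminin gamma chain to type IV collagen, read 1173.3 ± 51.5 and 688.1 ± 34.6 MBEI, a log2 difference of 0.77 (1.71-fold, model standard error 0.10). Its paralog NID2 lay the other way at 110.4 ± 4.7 and 178.0 ± 4.1 MBEI, a log2 difference of -0.69 (model standard error 0.07), or 0.75 with the spike-ins set equal. The log2 differences of NID1 and NID2 stood 1.46 apart (model standard error 0.12). AGRN (agrin), a heparan sulfate proteoglycan that binds laminin and dystroglycan, read 1273.5 ± 36.2 and 1244.8 ± 18.9 MBEI. Its log2 difference of 0.03 was the only one of the 26 that lay within 2 model standard errors of 0.

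**Figure D2:**
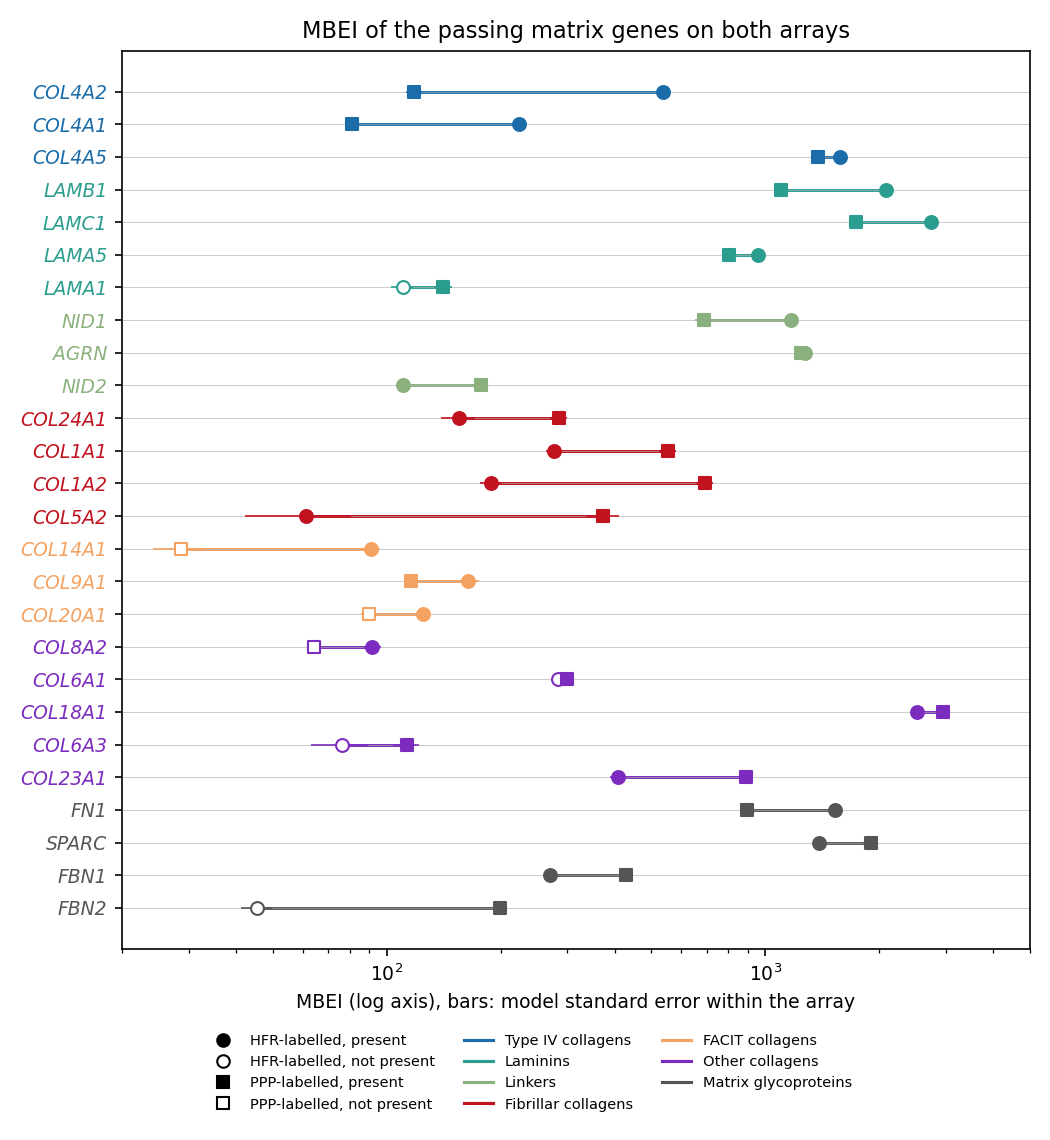
MBEI (log axis) of the 26 passing matrix genes on the HFR-labelled (circles) and PPP-labelled (squares) array, filled where called present, with model standard errors as bars and colours for classes. COL4A1, COL4A2, LAMB1, LAMC1 and NID1 have the circle to the right, and the 4 fibrillar collagens have the square to the right, by 1.83-fold to 6.09-fold; with spike-ins set equal, COL1A1 and COL24A1 would turn.

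The fibrillar collagens that passed lay toward the PPP-labelled array. Of 9 on the array 4 passed, all 4 below 0 (54.8% of all passing genes). In the PPP-labelled sample 2 of them, COL5A2 and COL1A2, were at least 2-fold higher (4.25% of all passing genes). COL5A2 reached the level filter on the PPP-labelled array alone, so its side follows from the filter. With the spike-ins set equal 2 of the 4 lay above 0. COL5A2, a chain of the type V collagen that starts and limits fibril growth, read 61.3 ± 19.0 MBEI on the HFR-labelled array and 373.6 ± 38.2 MBEI on the PPP-labelled array. This was 6.09-fold higher on the latter, a log2 difference of -2.61 with a wide model standard error of 0.47, and ranked 14 of 7389 passing genes from the PPP side. The other COL5A2 probe sets were called absent on both arrays, with log2 differences of 0.17 and -0.26.

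Both chains of type I collagen, the main collagen of bone and skin, were called present on both arrays. COL1A2 read 188.9 ± 12.5 and 692.0 ± 37.0 MBEI, 3.66-fold higher on the PPP-labelled array (log2 difference -1.87, model standard error 0.12). Its other passing probe set gave nearly the same values, 167.2 ± 8.8 and 627.6 ± 20.4 MBEI (log2 difference -1.91). The remaining COL1A2 probe sets were called absent on both arrays, and the brightest of them read 246.1 ± 13.2 and 205.1 ± 7.4 MBEI (log2 difference 0.26). COL1A1 read 277.4 ± 13.7 and 552.4 ± 27.8 MBEI, a log2 difference of -0.99 (model standard error 0.10), just under the 2-fold threshold at 1.99-fold, and 0.45 with the spike-ins set equal. COL1A2 minus COL1A1, the gap between the log2 differences of the 2 chains, was -0.88 (model standard error 0.16).

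COL24A1, a fibrillar chain of developing bone and eye in mouse, read 155.1 ± 16.3 and 284.6 ± 14.1 MBEI, a log2 difference of -0.88, or 0.57 with the spike-ins set equal. Its other passing probe set read 38.1 ± 7.0 (absent) and 120.4 ± 8.5 MBEI, at least 3.16-fold higher in the PPP-labelled sample. A further 3 fibrillar genes had a passing probe set that was not their brightest, and the brightest one was not called present on its brighter array. COL5A1, the partner chain of COL5A2, read 78.4 ± 13.1 and 264.2 ± 11.4 MBEI there, 3.37-fold higher on the PPP-labelled array, whereas the probe set that stands for it read 224.5 ± 58.5 (absent) and 149.3 ± 18.6 MBEI. COL11A1 and COL2A1, chains of cartilage and notochord collagens, had log2 differences of -0.93 (64.3 ± 5.5 and 122.9 ± 5.0 MBEI) and -0.46 (73.7 ± 2.8 and 101.6 ± 6.1 MBEI) with their highest passing probe sets.

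Taking the highest passing probe set of every gene, a setting added after the data were seen, brought the fibrillar genes to 7, all 7 below 0 and 3 of them at 2-fold in the PPP-labelled sample (4.51% of all genes under this setting), with a median of -0.99. At the probe set level 10 of 35 fibrillar probe sets passed, and all 10 lay below 0, while 56.3% of all passing probe sets did. The passing probe sets of COL5A2 and COL11A1 and the dimmer one of COL24A1 reached 70.8 MBEI on the PPP-labelled array alone. Their side therefore follows from the filter. Of 18 type IV probe sets 5 passed, all 5 above 0, against 43.7% of all passing probe sets. The COL4A2 probe sets called absent on the PPP-labelled array passed only through the other array. Several probe sets also share a gene, so the counts are not read as replicates. COL3A1, the chain of type III collagen and the neighbour of COL5A2 in gene order, did not pass. The probe set that stands for it was called absent on both arrays at 381.6 ± 14.8 and 256.0 ± 9.2 MBEI, a log2 difference of 0.58. Its 1 present probe set read 52.1 ± 13.6 (absent) and 70.5 ± 14.7 MBEI (-0.44), just outside the limit of 70.8, while a COL11A1 probe set at 71.6 MBEI was just inside. COL27A1 was not called present with any probe set, and COL5A3 and COL11A2 are named by no probe set here.

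**Figure D3:**
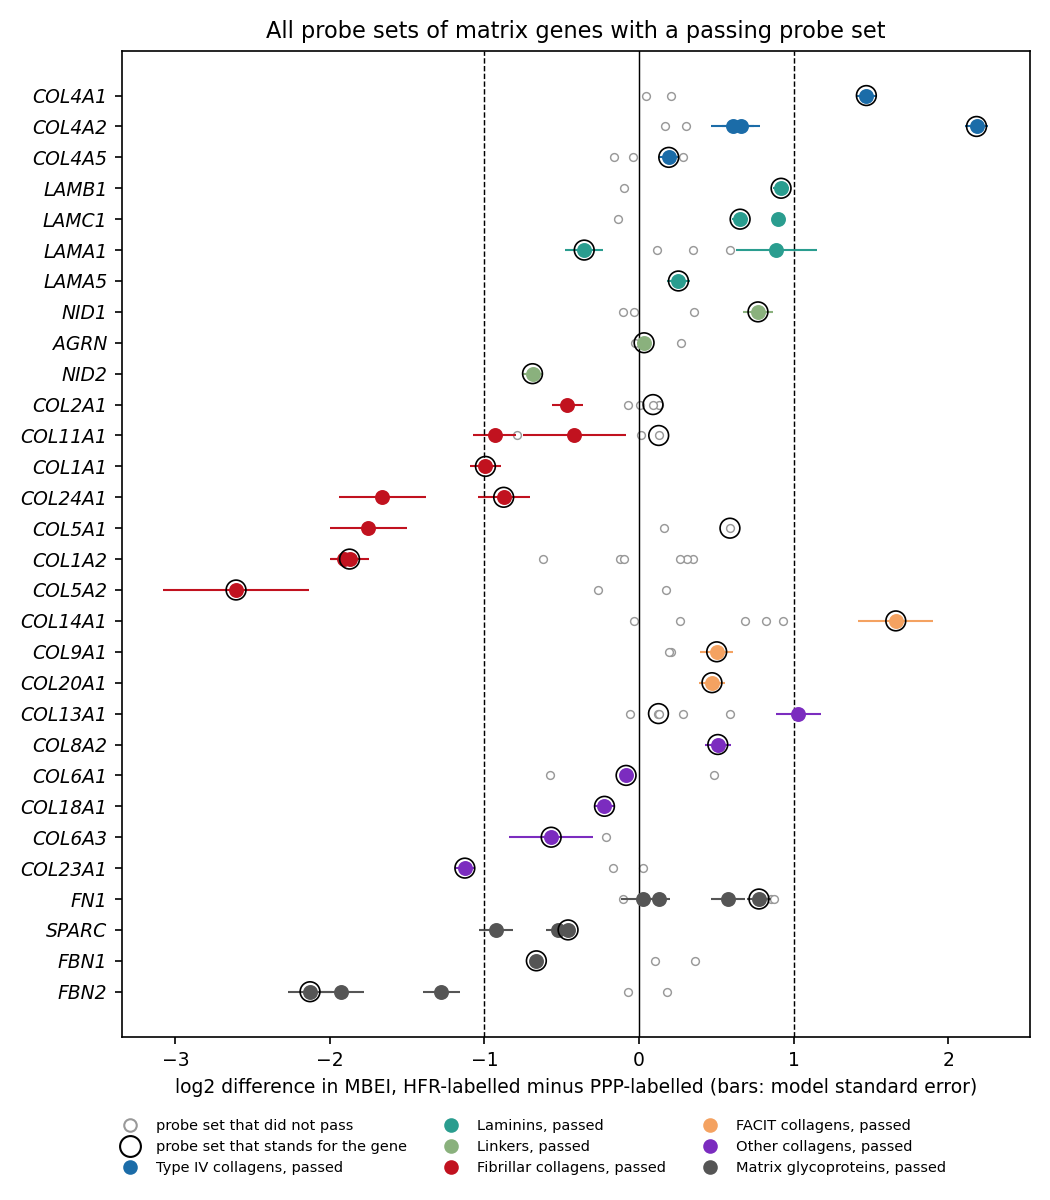
Log2 difference in MBEI (HFR-labelled minus PPP-labelled) of each probe set of the 30 matrix genes that had a passing probe set, filled where it passed (bars: model standard error), grey and open where it did not, and ringed where it stands for the gene; dashed lines mark 2-fold. The 5 passing type IV collagen probe sets lie right of 0 and the 10 fibrillar ones left of it, and the LAMA1 probe sets lie on both sides. Some of these probe sets reached the level filter only on the array where they are brighter, so their side follows from the filter. With spike-ins set equal every point would move right by 1.44.

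Set against each other, the 7 passing type IV collagen and laminin genes spanned log2 differences from -0.35 (LAMA1, whose other passing probe set read 0.89) to 2.18, or from 0.19 (COL4A5) without LAMA1, with a median of 0.65, and the 4 fibrillar genes from -2.61 to -0.88. The medians stood 2.09 apart, a contrast that a single scaling factor between the arrays cannot change. COL5A2, at the -2.61 end, and LAMA1 passed only through the PPP-labelled array, so their side follows from the filter. Both medians rest partly on these genes. With the highest passing probe sets the fibrillar range reached -0.46, close to the -0.35 of LAMA1. Without the level filter the contrast was 0.12, as 5 of the 9 fibrillar genes and 10 of the 17 type IV and laminin genes then enter without having passed. Of 18 type IV probe sets the HFR-labelled array called 7 present and the PPP-labelled array 5, of 35 fibrillar probe sets 10 and 13, and of 27 laminin probe sets 5 and 9. The shares were 26.1% and 30.1% over the 176 matrix probe sets, and 38.4% and 42.2% over all probe sets, and nothing is read from these counts.

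FACIT collagens decorate the surface of fibrils. Of 10 on the array 3 passed, with log2 differences above 0, but COL14A1 and COL20A1 passed only through the HFR-labelled array, where they are higher, so nothing is read from that count. COL14A1 read 90.8 ± 5.5 and 28.7 ± 4.5 MBEI (absent), at least 3.16-fold higher in the HFR-labelled sample, and a further probe set just under the level filter read 63.7 ± 4.6 and 33.4 ± 5.7 MBEI (absent). COL9A1 read 164.5 ± 10.9 and 116.1 ± 4.1 MBEI, a log2 difference of 0.50, and COL20A1 read 124.7 ± 4.4 and 89.9 ± 4.3 MBEI (absent), a log2 difference of 0.47. Of the 3, COL9A1 alone was called present on both arrays. COL12A1, COL21A1, COL22A1 and COL9A3 were called present with some probe set but did not pass, and COL9A2, COL16A1 and COL19A1 were never called present.

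Among the other collagens 5 of 16 passed, 1 above 0 and 4 below 0 (45.2% and 54.8% of all passing genes). COL6A1, COL6A3 and COL8A2 passed only through the array where they are higher, so nothing is read from that count. COL23A1, a transmembrane collagen, read 407.6 ± 17.3 and 890.2 ± 10.7 MBEI, 2.18-fold higher on the PPP-labelled array (log2 difference -1.13, model standard error 0.06) and 0.32 with the spike-ins set equal. COL18A1, a basement membrane collagen whose end fragment is endostatin, was bright on both arrays at 2524.7 ± 81.8 and 2947.6 ± 86.7 MBEI, a log2 difference of -0.22. COL18A1, which belongs to the same kind of matrix as COL4A1 and COL4A2, thus lay slightly below 0, or at 1.22 with the spike-ins set equal.

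Of the chains of the beaded type VI collagen, COL6A1 and COL6A3 passed, both through the PPP-labelled array alone, so their side follows from the filter. COL6A1 read 283.2 ± 3.6 (absent) and 300.1 ± 2.3 MBEI, a log2 difference of -0.08, and COL6A3 read 76.2 ± 13.0 (absent) and 113.0 ± 8.9 MBEI, a log2 difference of -0.57. Both differences are lower bounds in size. COL6A2 was not called present, and the probe set that stands for it had a log2 difference of 1.39. COL8A2, a short-chain collagen, had a log2 difference of 0.51 (91.7 ± 4.7 and 64.4 ± 1.9 MBEI, absent). COL13A1, another transmembrane collagen, passed with a probe set that was not its brightest (83.8 ± 6.9 and 41.0 ± 2.3 MBEI, 2.04-fold higher on the HFR-labelled array). COL8A1 was called present but did not pass, and COL6A6, COL7A1, COL10A1, COL15A1, COL17A1, COL25A1, COL26A1 and COL28A1 were never called present.

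All 4 of the matrix glycoproteins passed, 1 above 0 and 3 below 0 (45.2% and 54.8% of all passing genes). FN1 (fibronectin), which assembles into fibrils that migrating cells bind, read 1533.2 ± 56.7 and 895.2 ± 36.2 MBEI, a log2 difference of 0.78 (model standard error 0.08). Its 4 passing probe sets lay between 0.02 and 0.78. FBN2 (fibrillin-2), a microfibril protein of early development, read 45.5 ± 4.3 (absent) and 199.0 ± 4.9 MBEI, at least 4.37-fold higher in the PPP-labelled sample. All 3 of its passing probe sets lay on that side, with log2 differences from -2.13 to -1.28. Each of them reached the level filter on the PPP-labelled array alone, so their shared side follows from the filter. Its probe sets that did not pass had log2 differences of -1.29, -0.07 and 0.18.

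FBN1 (fibrillin-1) read 270.7 ± 4.5 and 429.0 ± 7.5 MBEI, a log2 difference of -0.66, on the same side as FBN2. SPARC, a collagen-binding glycoprotein of basement membranes and bone, read 1385.5 ± 28.1 and 1904.6 ± 43.5 MBEI, a log2 difference of -0.46, and its 3 passing probe sets lay between -0.93 and -0.46. With the spike-ins set equal FBN1 and SPARC lay above 0 (0.78 and 0.98), and FBN2 stayed below it at -0.69. In 8 of the 9 matrix genes with more than 1 passing probe set these all pointed one way, LAMA1 being the exception, as did 63.2% of all 2438 such genes. Part of this agreement follows from the filter, as for FBN2.

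Genes that fold, modify and process collagen showed no shared direction. Of 26 on the array 15 passed, 8 above 0 and 7 below 0 (45.2% and 54.8% of all passing genes), with a median log2 difference of 0.12. In the PPP-labelled sample 2 of the 15 were at least 2-fold higher, against 4.25% of all passing genes. TLL1, a tolloid protease that removes the end of fibrillar procollagens, read 142.8 ± 17.7 and 621.1 ± 28.8 MBEI, 4.35-fold higher on the PPP-labelled array (log2 difference -2.12, model standard error 0.19). P3H1, a prolyl 3-hydroxylase of fibrillar chains, read 53.8 ± 5.1 and 170.1 ± 2.7 MBEI, 3.16-fold higher there, while its other probe sets were not called present. P3H1 reached the level filter on the PPP-labelled array alone, so its side follows from the filter and nothing is read from the count of 2. With the spike-ins set equal TLL1 and P3H1 would stay below 0.

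Toward the HFR-labelled array lay SERPINH1 (HSP47), a chaperone of all procollagens, at 852.2 ± 13.7 and 447.3 ± 23.7 MBEI, a log2 difference of 0.93. P4HA1, a subunit of the prolyl 4-hydroxylase that stabilises the triple helix, read 1163.7 ± 49.2 and 625.1 ± 15.7 MBEI, a log2 difference of 0.90. PXDN (peroxidasin), which crosslinks type IV collagen and was chosen after its values were seen, read 1100.4 ± 34.0 and 648.0 ± 13.8 MBEI, a log2 difference of 0.76. PLOD2 and P4HA3 differed by more than PXDN, with log2 differences of -0.79 and 0.79, the latter a lower bound. P4HA2 and CRTAP lay toward the PPP-labelled array at -0.73 and -0.58.

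Receptors for basement membrane and collagen also divided. Of 12 on the array 7 passed, 4 above 0 and 3 below 0 (45.2% and 54.8% of all passing genes), with a median of 0.15. ITGA6, the alpha subunit of laminin-binding integrins, read 191.5 ± 20.1 and 88.0 ± 11.4 MBEI, 2.18-fold higher on the HFR-labelled array (log2 difference 1.12, model standard error 0.24). DDR2, a receptor kinase activated by fibrillar collagen, read 59.9 ± 8.6 (absent) and 169.2 ± 8.3 MBEI, at least 2.82-fold higher in the PPP-labelled sample. With the spike-ins set equal the log2 difference of DDR2 would be near 0.

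DDR1, a collagen receptor kinase that type IV collagen also activates, read 225.8 ± 15.4 and 360.2 ± 14.9 MBEI (log2 difference -0.67), and DAG1 (dystroglycan), a laminin receptor, 167.4 ± 2.9 and 121.7 ± 7.7 MBEI (0.46). ITGA6 and DDR2 had the largest differences among these receptors. DDR2 passed only through the PPP-labelled array, so its side follows from the filter, and DDR1 lay on the side opposite to the type IV collagens. Whether receptors and their ligands lay on the same side was not tested. Of 12 other basement membrane genes 4 passed, and none of these reached 2-fold. FBLN1 (fibulin-1) had a log2 difference of 0.29, HMCN1 (hemicentin-1) of 0.24, FRAS1 of 0.10 and FBLN2 of -0.05. HSPG2 (perlecan) did not pass, as the probe set that stands for it read 167.4 ± 3.8 (marginal) and 170.2 ± 7.7 MBEI (absent). A dimmer HSPG2 probe set passed through the PPP-labelled array alone, at 47.2 ± 4.4 (absent) and 75.6 ± 3.3 MBEI (log2 difference -0.68).

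**Figure D4:**
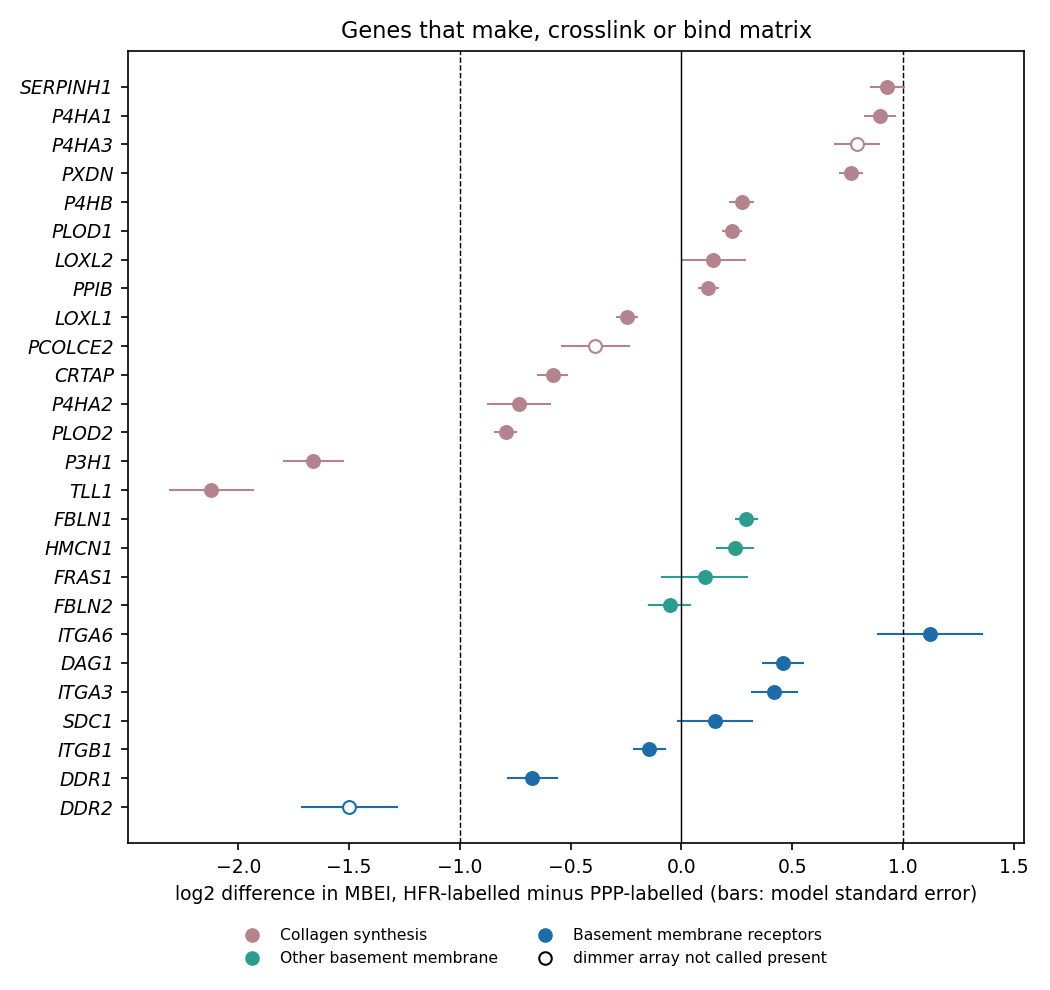
Log2 difference in MBEI (HFR-labelled minus PPP-labelled) of passing genes that make or crosslink collagen, belong to other basement membrane components or act as matrix receptors; bars are model standard errors, open points mark a dimmer array that was not called present, and dashed lines mark 2-fold. TLL1, P3H1 and DDR2 lie beyond 2-fold on the PPP side and ITGA6 on the HFR side. P3H1 and DDR2 passed only through the PPP-labelled array, so their side follows from the filter. With spike-ins set equal every point would move right by 1.44.

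Markers of several tissues also differed between the arrays. Of 10 extraembryonic endoderm genes 4 and 2 were called present in the HFR-labelled and the PPP-labelled sample, with summed levels of 8366.4 and 1002.0 MBEI. APOA1, RBP4A and TTR held most of the former sum, at 4249.7 ± 0.5, 1835.5 ± 405.9 and 1365.0 ± 511.7 MBEI, and 6 of the 10 genes did not pass. Among 5 epithelial genes the sums were 12465.1 and 2841.4 MBEI, with 4 called present on each array. The 7 mesenchyme genes had sums of 4264.4 and 5854.9 MBEI, with 5 and 7 called present, and the 7 endothelial and blood genes 1282.6 and 3098.3 MBEI, with 2 and 5 called present. KDR held much of the latter sums, at 849.6 and 1459.6 MBEI. CDH5, TAL1 and FLT1 had log2 differences of -3.97, -3.76 and -2.21, but reached the level filter on the PPP-labelled array alone. The LMO2 probe set in the sums was called absent on both arrays (219.7 and 181.1 MBEI). Another LMO2 probe set read 44.2 (marginal) and 501.3 MBEI. PECAM1 and HBZ did not pass. CDH1, the cadherin of epithelia, read 850.4 ± 64.3 and 92.4 ± 27.0 MBEI, and TWIST1, a transcription factor of mesenchyme, 36.7 ± 6.9 (absent) and 600.5 ± 44.3 MBEI, the largest difference of its list. The other mesenchyme genes did not all lie on that side, with log2 differences of 0.30 for SNAI2, -0.07 for VIM, -0.42 for PDGFRA, -0.61 for CDH2, -0.89 for PRRX1 and -2.16 for CDH11. None of these markers was listed at 0. The part of these markers in the collagen and laminin differences was not tested.

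The 4 heart markers NKX2-5, ISL1, HAND2 and GATA5 all lay below 0, opposite to the labels, with log2 differences from -1.43 (ISL1) to -0.62 (GATA5). They had summed levels of 3016.1 and 4774.6 MBEI, with 1 called present on the HFR-labelled array, namely GATA5, and all 4 on the other. GATA5 held most of both sums, at 2803.6 and 4308.1 MBEI. Of the 4 streak markers TBXT and WNT3A lay above 0, opposite to the labels. FGF8 lay below 0 at -2.18, on the side of the labels, and MIXL1 near 0 at -0.02. Together the 4 had 9275.3 and 5063.1 MBEI, with 3 and 4 called present.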

How the data were processed

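The authors deposited probe set intensities on a linear scale (MBEI) with a detection call and a standard error, per the file headers. The design text states that an invariant probe set scaled every array to the one of median intensity, and that a model of perfect match probes was fitted over 6 arrays. Of these, 4 came from another study, and their 12 columns were not used. The submitters' processing notes name GCOS 1.3, and no source used here names the modelling program.

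Of 38535 probe sets, 153 controls and reporters were left out. The MBEI of all 38535 equalled the series' value table on both arrays. Symbols came from the platform annotation, updated through gene IDs with a RefSeq table of assembly GRCg7b, in which 175 of 176 member probe sets were found. Its coordinates are not used, only gene order. The 1 value listed at 0 was set to 0.1. A bound used the dim value, or the array's lowest present MBEI where that was higher, which was the case for no member. Errors of log2 differences were propagated from both model errors. Calculations used Python 3.11.15, numpy 2.4.6, pandas 2.3.3 and statsmodels 0.14.6 and were tested on simulated data.

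The members, classes and lists were chosen with earlier results of these data known. Every member may be named. From the collagen synthesis, other basement membrane and receptor lists, all passing genes at 2-fold and up to 4 by size of difference were named. PXDN, PLOD2, P4HA2, P4HA3, CRTAP and HSPG2 were named besides, after their values were seen. CER1 and all mesenchyme, heart and streak markers were named whatever their values. Of the epithelial markers CDH1 alone was named. The extraembryonic endoderm and the endothelial and blood markers were given as sums and present calls, and some were named after their values were seen. Several of them differed by more than 2-fold. Alternatives were other scalings, a pseudocount of 20 MBEI, other level filters and probe set choices, other thresholds, measured values in place of bounds, and the series' value table.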

Additional observations from a re-analysis of the deposited data

How the results depend on the processing

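With 1 array per tissue no array could be left out. No paired analysis was possible because each group has 1 sample and no test was run. A median counted as moved when it shifted by more than the largest model standard error among its passing genes. With poly-A spike-ins set equal, 16 matrix genes reached 2-fold in the HFR-labelled sample and 1 in the PPP-labelled sample. Of all 7389 passing genes 5970 and 17 did so, as that scaling adds 1.44 to every gene. The medians were then 2.91 for type IV collagens, 1.90 for laminins, 0.0092 for fibrillar collagens (reversed), 1.56 for collagen synthesis and 1.59 for receptors. At 1.5-fold the counts were 7 and 8, against 698 and 963 of all 7389 passing genes. At 4-fold they were 1 and 2, against 73 and 44 of all passing genes. Without the level filter, which lets in probe sets called absent, the medians were 0.32 for type IV collagens, 0.21 for laminins and 0.091 for fibrillar collagens (reversed), and type IV and laminins exceeded fibrillar collagens by 0.12. The type IV median was 1.28 with the pseudocount and 0.66 with the median over passing probe sets. The laminin median was 0.65 with the stricter filter and when presence on both arrays was asked, since LAMA1 then drops out. Under the other alternatives run, the fibrillar median lay between -1.43 and -0.96, and the contrast between 1.62 and 2.22. The present COL3A1 probe set, at 70.5 MBEI, lay just under the 70.8 MBEI filter.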
